A study of Homo sapiens with 18 samples.

Results

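The response of 2 human lymphoma cell lines to the same low dose of JIB-04 was compared, by taking the change at 150 nM against DMSO in OCI-Ly1 and subtracting from it the change at 150 nM against DMSO in TMD8. The comparison used 12 of the 18 RNA-seq libraries of the series, chosen by their labels: OCI-Ly1 with DMSO vehicle, OCI-Ly1 with 150 nM JIB-04, TMD8 with DMSO vehicle and TMD8 with 150 nM JIB-04, with 3 libraries in each group. The remaining 6 libraries were from cells given 500 nM. They helped to set which genes were tested, the scaling and the estimate of spread, but were not compared. With the 12 libraries alone, 16139 genes were tested, against 16604 with all 18. OCI-Ly1 and TMD8 are established lines from diffuse large B-cell lymphoma, the first usually classed as germinal-centre type and the second as activated B-cell type, and neither carried a genetic change made for the experiment. The labels give IMDM for OCI-Ly1 and RPMI 1640 for TMD8, so line and medium cannot be told apart, and they state no treatment time. The 3 libraries of a group are called technical triplicates, so each p-value measures the spread between these libraries only. In bulk RNA, fewer cells of a kind and less RNA per cell cannot be told apart.

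JIB-04 is an inhibitor of the Jumonji C (JmjC) enzymes, which need iron and 2-oxoglutarate to take methyl groups off histone lysines. Lysine 9 of histone H3 is one of their substrates, and its methylation marks heterochromatin, the compact and mostly silent part of the genome. Stressed cells share a few well-known transcript programmes: ATF4 drives amino-acid synthesis and transport genes in the integrated stress response, p53 drives cell-cycle arrest and death genes, and HSF1 drives chaperones. Genes of mitosis, histone supply and ribosome assembly are in contrast highest in dividing cells.

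The 12 libraries held between 13706043 and 25545170 estimated counts. Levels are given as CPM, counts scaled to library size with TMM, and changes as log2 fold changes from edgeR's quasi-likelihood fit. A gene was called at a Benjamini-Hochberg adjusted p under 0.05 over all 16604 genes tested. On a principal component analysis of the 12 libraries the first component held 92.1% of the variance and separated the lines. On the second, which held 2.64%, the TMD8 libraries moved from between -39.3 and -24.3 with DMSO to between 19.9 and 38.2 at 150 nM, while all 6 OCI-Ly1 libraries lay between -3.46 and 4.71. Within OCI-Ly1 alone, DMSO replicate 2 stood apart, at 41.3 on a first component where the other 5 libraries lay between -16.5 and -1.34. Results that rest on that library are therefore given with and without it. The summed level of 6 B-cell markers was 939 to 990 TPM in OCI-Ly1 and 678 to 933 TPM in TMD8, with none of the 6 below 1 TPM. All 6 myeloid markers were below 1 TPM. The 5 T-cell markers measured summed to 27.2 to 29.8 TPM in OCI-Ly1 with DMSO and 20.0 to 23.5 TPM at 150 nM, almost all from CD3D and CD3G, and to at most 1.83 TPM in TMD8. With treatment, the B-cell sum in TMD8 went from between 801 and 933 TPM to between 678 and 728 TPM, and that of 5 fibroblast markers from between 0.616 and 0.774 TPM to between 1.56 and 2.09 TPM. The part of these markers in the results was not tested.

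The same dose moved far more genes in TMD8 than in OCI-Ly1. In TMD8, 2631 genes were called higher (15.8% of those tested) and 3544 lower (21.3%). In OCI-Ly1, 170 were called higher (1.02%) and 39 lower (0.235%). The difference between the changes passed the test for 3867 genes. The OCI-Ly1 change lay above the TMD8 change for 2484 of them (15% of genes tested) and below it for 1383 (8.33%). The libraries of the compared groups did not overlap for 8036 genes in TMD8 (48.4%) and for 2256 in OCI-Ly1 (13.6%). Without OCI-Ly1 DMSO replicate 2 the difference was called above for 2456 genes and below for 1264, and the OCI-Ly1 calls were 113 higher and 20 lower. The OCI-Ly1 counts rested on single libraries more generally. They ran from 104 higher and 13 lower without OCI-Ly1 150 nM replicate 2 to 277 higher without OCI-Ly1 150 nM replicate 1 and 85 lower without OCI-Ly1 DMSO replicate 3. The lower calls were also 79 without OCI-Ly1 150 nM replicate 1 and 13 without OCI-Ly1 150 nM replicate 3.

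**Figure D1:**
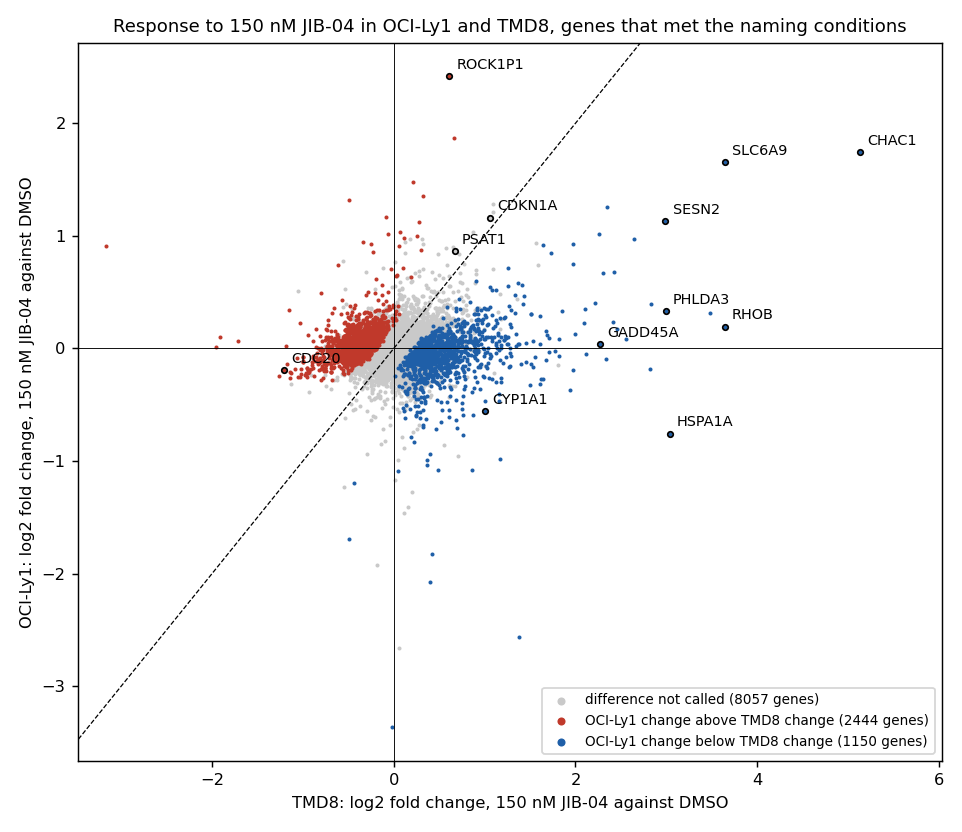
Log2 fold change at 150 nM against DMSO in TMD8 (horizontal) and OCI-Ly1 (vertical) for 11651 genes, those that exceeded 3 counts in all 12 libraries and averaged 5 CPM or more in at least 1 group. Points on the dashed line changed equally. Of these genes, 2444 (red) lay above it and 1150 (blue) below it with a called difference, and most red and blue points lie along the horizontal axis, where OCI-Ly1 changed little.

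Most called differences were genes that moved in TMD8 alone. Of the 2484 genes above, 2281 were called lower in TMD8 and not called in OCI-Ly1, and 35 were called higher in OCI-Ly1 and not called in TMD8. Of the 1383 genes below, 1195 were called higher in TMD8 alone and 13 lower in OCI-Ly1 alone. Both lines changed in the same direction for 114 genes, of which 100 were higher and 14 lower, and 60 of the 114 had no called difference. The 126 genes called in both lines were 60.3% of the OCI-Ly1 calls and 2.04% of the TMD8 calls. In 12 genes the called changes were opposite. The lines have no control library in common, and over the 12192 tested genes that averaged 5 CPM or more in at least 1 group the changes had a Spearman correlation of 0.0716 across genes, which are not independent replicates. The median absolute log2 change over those genes was 0.0733 in OCI-Ly1 and 0.207 in TMD8.

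Differences of at least 1 on the log2 scale were called for 420 genes, 64 above and 356 below, and 306 of the 356 were called higher in TMD8. For 6298 genes (37.9%) the 95% interval of the difference lay within 0.5 of 0. The balance between directions depended on the scaling. Of the called differences, 64.2% lay above with TMM, 47.0% with library size alone (1715 above, 1937 below), 85.9% on log2(TPM + 1) (3451 above, 568 below) and 69.8% on the same values centred on their median (2940 above, 1275 below). The median TMD8 change over all genes tested was 0.01 with TMM, 0.10 with library size alone and -0.10 on log2(TPM + 1). On TPM, the 1 gene MIR3687 held between 15.2% and 20.6% of the total in the 6 TMD8 libraries and at most 0.297% in the OCI-Ly1 libraries, and 83.9% of calls still lay above when it was taken out of the TPM totals. List medians below are read against the median difference over all genes, which was 0.00 with TMM. That all-gene median was -0.087 with library size alone and 0.18 on log2(TPM + 0.1). The ranges and sign changes of list medians over the alternatives are given without correcting for it.

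**Figure D2:**
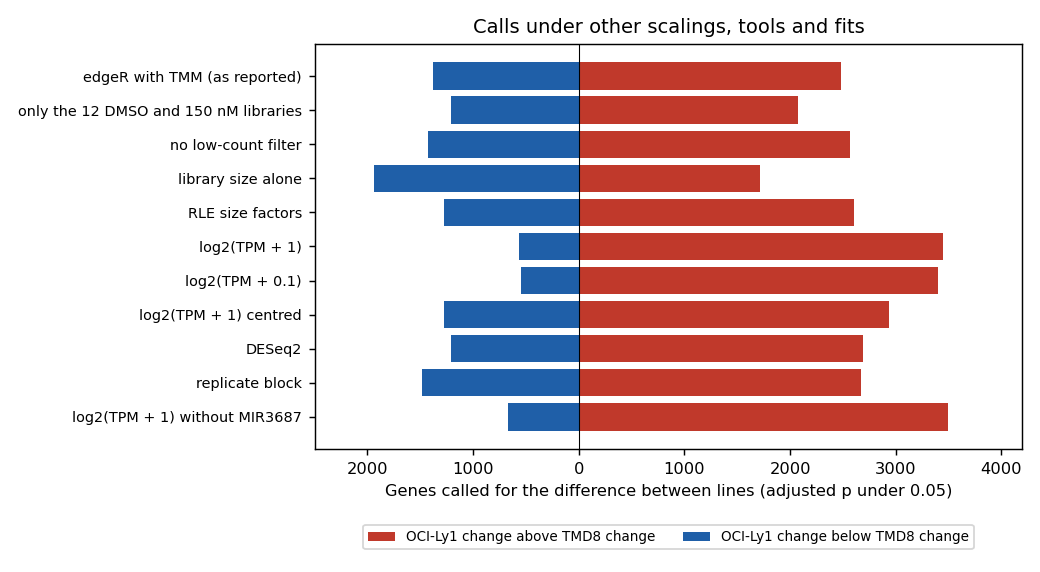
Number of genes called for the difference between lines under the reported fit and 10 other settings, with bars to the right for the OCI-Ly1 change above the TMD8 change and to the left for below. The reported fit has 2484 and 1383, and the bar lengths shift most between library size alone and the TPM values.

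Cell-division genes fell together in TMD8. The list of mitotic and G2/M genes had 42 tested members, of which 42 were called lower in TMD8 and none in OCI-Ly1 by edgeR or DESeq2 (6 at an unadjusted p under 0.05), and 40 were called for the difference, all with the OCI-Ly1 change above. The 40 were 95.2% of the list, against 15% of all genes tested, of which 21.3% were called lower in TMD8. The median change was -0.02 in OCI-Ly1 and -0.69 in TMD8, against 0.00 and 0.01 over all genes tested. The median difference of 0.68 stayed between 0.60 and 0.86 over the 22 alternatives. CDC20, which activates the anaphase-promoting complex, was the member with the largest difference. Its promoter is shown because the list's best-known shared elements can be read in it: the cell cycle genes homology region, searched as TTTGAA on both strands, is in capitals. The window is the 250 bases before the start in RefSeq, build GRCh38.p14, chr1:43358731-43358980, plus strand.
CDC20: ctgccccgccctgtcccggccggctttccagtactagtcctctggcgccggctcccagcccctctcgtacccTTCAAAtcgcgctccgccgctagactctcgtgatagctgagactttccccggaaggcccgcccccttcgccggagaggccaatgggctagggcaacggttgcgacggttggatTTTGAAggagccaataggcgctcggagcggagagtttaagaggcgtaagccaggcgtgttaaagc
The matches begin 178 and 65 bases before the start. Of the 42 mitotic genes, 35 matched a RefSeq promoter, and 20 of those (57.1%) held TTTGAA against 13.6% of all 27303 promoters. The CCAAT box, searched as CCAAT on both strands, was in 29 of the 35 (82.9%) against 33.04% of all. A match describes letters and does not show a bound site.

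CDC20 stood at 176, 161 and 162 CPM in OCI-Ly1 with DMSO and at 155, 139.7 and 142 CPM at 150 nM. The TMD8 libraries stood at 159, 138 and 144 CPM with DMSO and at 75.0, 63.4 and 53.4 CPM at 150 nM. The groups did not overlap in either line, but the step was small in OCI-Ly1 and large in TMD8. Its log2 change was -0.19 ± 0.08 (SE) in OCI-Ly1, which was not called (adjusted p = 0.32), and -1.21 ± 0.09 in TMD8. The difference was 1.02 ± 0.12 (95% interval 0.77 to 1.26, edgeR adjusted p = 1.5e-06). CCNB1, the cyclin of the mitotic kinase CDK1, fell in TMD8 from 191 to 219 CPM down to 84.3 to 115 CPM, with a difference of 0.89 ± 0.10. PLK1, a kinase of mitotic entry, differed by 0.88, and CDC25C, the phosphatase that activates CDK1, had the smallest difference of the list at 0.22 and was not called.

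The replication-dependent histone genes also fell in TMD8. Of 55 tested members, 51 were called lower in TMD8 and 1 in OCI-Ly1, where 33 had an unadjusted p under 0.05 and DESeq2 called 1, and 48 had a called difference, all above. The 48 were 87.3% of the list, against 15% of all genes tested, of which 21.3% were called lower in TMD8. The median change was -0.18 in OCI-Ly1 and -0.79 in TMD8, and the median difference of 0.63 stayed between 0.55 and 0.82 over the alternatives. HIST1H2AJ, an H2A gene, stood at 435, 417 and 419 CPM in OCI-Ly1 with DMSO and at 382, 347 and 369 CPM at 150 nM. TMD8 levels were 473, 398 and 402 CPM with DMSO and at 226, 188 and 165 CPM at 150 nM. Treated libraries lay below their controls in both lines, and the TMD8 step was the larger, with a difference of 0.93 ± 0.11. HIST1H2BL, an H2B gene, differed by 0.91 ± 0.11. HIST1H2AL, another H2A gene, was the 1 member called in OCI-Ly1, at -0.28. These genes are near-copies of each other, so the split of reads between single members is uncertain.

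DNA replication genes moved less. Of 38 tested members, 25 were called lower and 1 higher in TMD8, none was called in OCI-Ly1 by edgeR (3 at an unadjusted p under 0.05, 1 by DESeq2), and 24 differed, all above, with a median difference of 0.30. The 24 were 63.2% of the list, against 15% of all genes tested, of which 21.3% were called lower in TMD8. MCM4, a subunit of the replicative helicase, stood between 651 and 679.8 CPM in all 6 OCI-Ly1 libraries. Values in TMD8 were 479, 439 and 444 CPM with DMSO and at 321, 320.0 and 300.0 CPM at 150 nM. It was flat in OCI-Ly1 and without overlap in TMD8, and the difference was 0.56 ± 0.07 (adjusted p = 3.2e-06). RPA3, which binds single-stranded DNA, differed by 0.52 ± 0.12. LIG1, the replicative DNA ligase, was the member called higher in TMD8, at 0.19.

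Ribosome biogenesis genes, which build ribosomal RNA and its particles in the nucleolus, shifted by a similar small step in every member. All 34 tested members were called lower in TMD8 and none in OCI-Ly1 by edgeR or DESeq2 (2 at an unadjusted p under 0.05), and 32 differed, all above. The 32 were 94.1% of the list, against 15% of all genes tested, of which 21.3% were called lower in TMD8. Differences of the 34 members ran from 0.18 for UBTF, a polymerase I factor, to 0.50 for UTP20, a component of the small-subunit processome. UTP20 stood between 197 and 206 CPM in the 6 OCI-Ly1 libraries, at 282, 245 and 245 CPM in TMD8 with DMSO, and at 195, 180.4 and 167 CPM in TMD8 at 150 nM. HEATR1, another processome factor, also differed by 0.50, with a change of 0.08 in OCI-Ly1 and -0.43 in TMD8. MYC, an activator of this programme that stands in the immediate-early list, changed by -0.07 in OCI-Ly1 and -0.64 in TMD8, with a called difference of 0.56.

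The p53 targets were the list with the largest median difference in the other direction. Of 26 tested members, 25 were called higher in TMD8 and 5 in OCI-Ly1 (15 at an unadjusted p under 0.05, 8 by DESeq2), and 20 differed, all with the OCI-Ly1 change below. The 20 were 76.9% of the list, against 8.33% of all genes tested, of which 15.8% were called higher in TMD8. The median change was 0.14 for OCI-Ly1 against 0.88 for TMD8. The median difference of -0.65 stayed between -0.74 and -0.41 over the alternatives, and it was -0.60 over the 24 members with more than 3 counts in some library of each line. PHLDA3, a repressor of AKT signalling, stood at 0.690, 0.338 and 0.813 CPM in OCI-Ly1 with DMSO and at 0.939, 0.635 and 0.872 CPM at 150 nM. In TMD8 it stood at 3.29, 4.27 and 3.93 CPM with DMSO and at 26.0, 32.2 and 33.6 CPM at 150 nM. It overlapped between treatments in OCI-Ly1 and rose in all TMD8 libraries, with a difference of -2.66 ± 0.34 (adjusted p = 6.1e-06).

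GADD45A, a growth-arrest gene induced by DNA damage, started from a much higher level in the line where it was not called. It stood at 40.1, 49.2 and 51.9 CPM in OCI-Ly1 with DMSO and at 48.8, 45.3 and 50.7 CPM at 150 nM. The TMD8 libraries stood at 3.69, 3.51 and 2.88 CPM with DMSO and at 13.0, 16.8 and 18.2 CPM at 150 nM. TMD8 rose by 2.27 ± 0.14 and stayed under the OCI-Ly1 level, OCI-Ly1 overlapped throughout, and the difference was -2.24 ± 0.17 (adjusted p = 2.6e-09). TP53INP1, a p53 cofactor, differed by -1.81. MDM2, the ubiquitin ligase of p53, rose by 0.46 in TMD8 and differed by -0.34, and BAX, a pore former of the mitochondrial death pathway, rose by 0.67 and differed by -0.60.

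CDKN1A was the 1 member of the p53 list whose difference was not below 0, and it rose in both lines. This gene encodes p21, an inhibitor of cyclin-dependent kinases. It stood at 17.02, 15.5 and 16.7 CPM in OCI-Ly1 with DMSO and at 38.9, 37.4 and 34.0 CPM at 150 nM. TMD8 levels were 76.8, 81.3 and 86.1 CPM with DMSO and at 154, 178 and 178 CPM at 150 nM. No treated library reached the range of its controls, and TMD8 lay above OCI-Ly1 at each dose. The changes were 1.16 ± 0.07 and 1.06 ± 0.06, with a difference of 0.10 (95% interval -0.10 to 0.29, adjusted p = 0.50).

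The integrated stress response was the programme that OCI-Ly1 also mounted at this dose. Of 35 tested members, 27 were called higher in OCI-Ly1 and 28 in TMD8, where 1 was lower. Over all genes tested, 1.02% were called higher in OCI-Ly1 and 15.8% in TMD8. The median change of the list was 0.36 for OCI-Ly1 against 0.72 for TMD8. The difference was called below for 18 (51.4%, against 8.33% of all genes tested) and above for 4 (11.4%, against 15%). Its median of -0.30 ran from -0.38 to -0.11 over the alternatives. The list thus split into genes that rose more in TMD8 by the test, genes that rose in both lines without a called difference, and a few with the OCI-Ly1 change above.

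CHAC1, which degrades glutathione and is a target of ATF4 and CHOP, had the largest TMD8 rise among the genes named here. It stood at 4.95, 3.94 and 3.48 CPM in OCI-Ly1 with DMSO and at 14.6, 13.8 and 13.3 CPM at 150 nM. Values in TMD8 were 0.470, 0.351 and 0.681 CPM with DMSO, from 6 to 13 counts, and at 16.1, 16.9 and 20.5 CPM at 150 nM. Treated levels were similar in the lines and the starting levels were not. The changes were 1.75 ± 0.12 and 5.13 ± 0.19, with a difference of -3.38 ± 0.26 (adjusted p = 3.8e-09), which was -1.23 on log2(TPM + 1). SLC6A9, a glycine transporter, rose from between 1.86 and 3.10 CPM to between 6.15 and 8.69 CPM in OCI-Ly1. TMD8 went from between 0.537 and 0.839 CPM to between 6.55 and 10.9 CPM, with a difference of -1.99 ± 0.33 that was not called on the 3 scales that use log2(TPM + 1), where it was -0.17 on the plain scale.

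ATF4 itself, the factor at the centre of the response, changed by 0.17 in OCI-Ly1, which was not called, and by 0.89 in TMD8, with a called difference of -0.72. DDIT3, which encodes CHOP, rose by 0.67 and 2.30, with a difference of -1.63. ASNS, asparagine synthetase, rose by 0.52 and 1.08, with a difference of -0.56. In these 3 genes the OCI-Ly1 change was smaller by a called amount.

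Among enzymes of serine and proline synthesis, PSAT1 and PYCR1 rose in both lines without a called difference. PHGDH, the first enzyme of serine synthesis, rose by 0.46 in OCI-Ly1 and 1.44 in TMD8, with a called difference of -0.97. PSAT1, the aminotransferase of serine synthesis, stood at 68.2, 72.8 and 71.3 CPM in OCI-Ly1 with DMSO and at 120.4, 137 and 129 CPM at 150 nM. In TMD8 it stood at 73.8, 70.9 and 70.3 CPM with DMSO and at 116, 116 and 110.0 CPM at 150 nM. The libraries of both lines nearly coincided with DMSO, and at 150 nM those of OCI-Ly1 all lay above those of TMD8. The difference was 0.20 (95% interval 0.03 to 0.36, adjusted p = 0.074), which passed on the 4 TPM settings, with DESeq2 and without OCI-Ly1 150 nM replicate 1. PYCR1, the last enzyme of proline synthesis, rose by 0.67 and 0.73, with a difference of -0.06 (95% interval -0.36 to 0.23). ATF3, a stress-induced repressor, rose by 2.67 in OCI-Ly1 and 0.71 in TMD8, with a called difference of 1.97, with DMSO levels of 0.169 to 0.542 CPM in OCI-Ly1 and 47.7 to 49.4 CPM in TMD8. PCK2, the mitochondrial phosphoenolpyruvate carboxykinase, and MTHFD2, a folate enzyme, had called differences of 0.74 and 0.39.

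**Figure D3:**
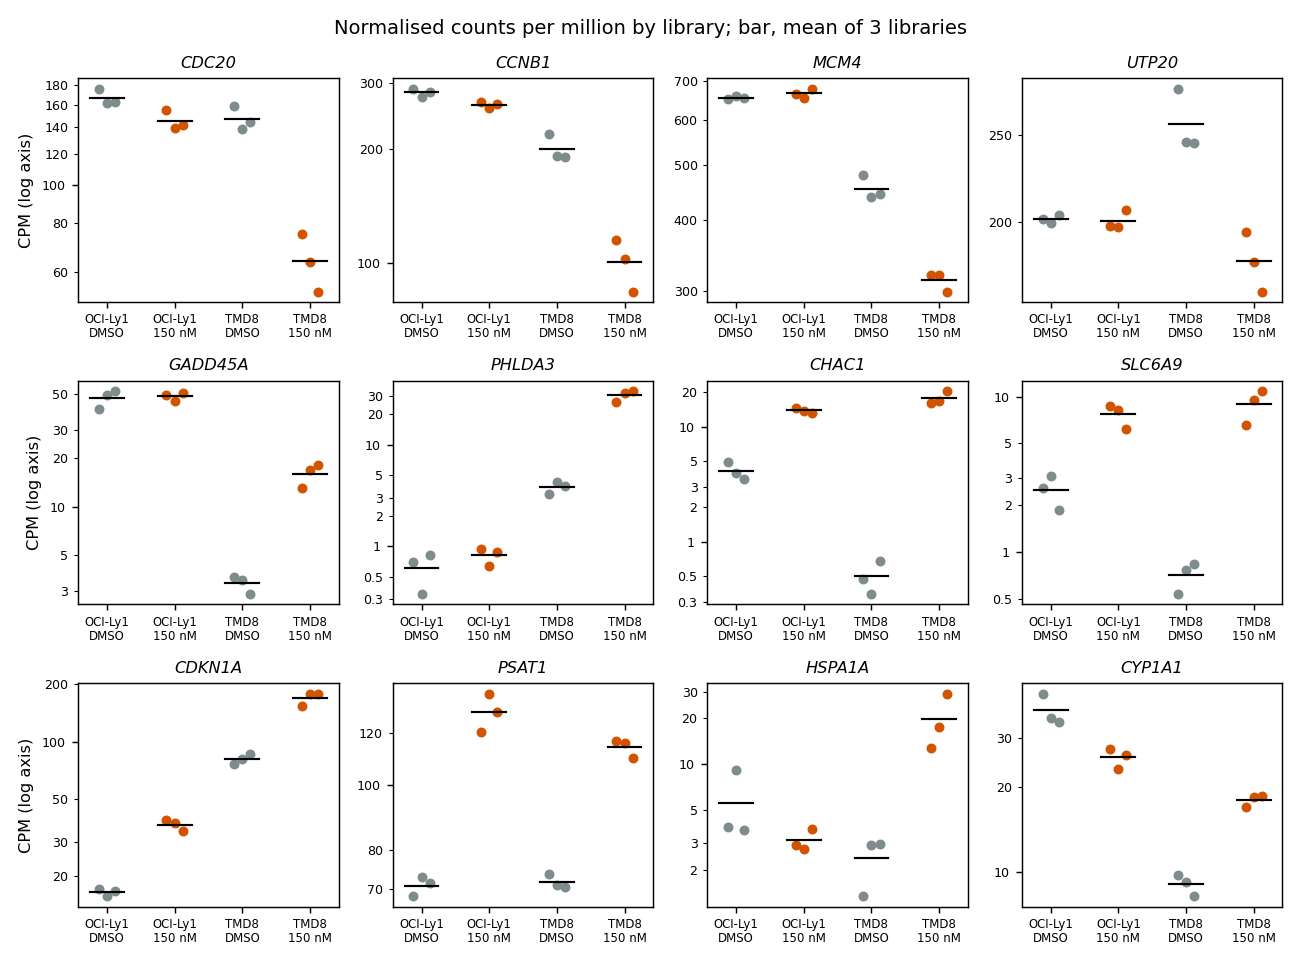
Normalised CPM on log axes for 12 genes, 1 point per library, grey for DMSO and orange for 150 nM JIB-04, with a bar at the mean of 3 libraries. CDC20, CCNB1, MCM4 and UTP20 were called lower in TMD8 and not called in OCI-Ly1, GADD45A and PHLDA3 rose in TMD8, CHAC1 and SLC6A9 rose in both lines by unequal steps, CDKN1A and PSAT1 rose in both by steps whose difference was not called, HSPA1A rose in TMD8, and CYP1A1 fell in OCI-Ly1 and rose in TMD8.

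Most heat-shock genes fell in TMD8, and a few rose. Of 22 tested members, 15 had the OCI-Ly1 change above (68.2%, against 15% of all genes tested) and 2 below (9.09%, against 8.33%). In TMD8, 14 were called lower and 4 higher, against 21.3% and 15.8% of all genes tested. In OCI-Ly1, 1 was called higher and none lower. Median changes were -0.06 for OCI-Ly1 and -0.41 for TMD8. The genes that fell in TMD8 included abundant constitutive chaperones: HSPA8 changed by -0.75, HSP90AA1 by -0.57 and HSPD1, the mitochondrial chaperonin, by -0.61, with called differences of 0.61, 0.58 and 0.58. The stress-inducible HSPB1 and HSPH1 also fell in TMD8, by 0.53 and 0.64, with called differences of 0.69 and 0.62. The inducible HSPA6 rose by 3.79 in TMD8, and its difference of -4.15 ± 1.59 was not called (adjusted p = 0.060). The 2 members below were the inducible HSP70 genes HSPA1A and HSPA1B, whose coding sequences are nearly identical, so that the split of reads between them is uncertain.

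The promoters of HSPA1A and SERPINH1 are shown because these genes had the largest called differences of the list in each direction and both carry the heat shock element searched here, GAANNTTC on both strands, in capitals. Both windows are the 250 bases before the start in RefSeq, build GRCh38.p14, plus strand, at chr6:31815293-31815542 and chr11:75562003-75562252.
HSPA1A: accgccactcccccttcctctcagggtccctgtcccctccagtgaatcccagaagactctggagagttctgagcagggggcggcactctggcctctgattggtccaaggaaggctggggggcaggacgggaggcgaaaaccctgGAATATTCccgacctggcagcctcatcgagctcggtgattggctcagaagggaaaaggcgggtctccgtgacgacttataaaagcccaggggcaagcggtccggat
SERPINH1: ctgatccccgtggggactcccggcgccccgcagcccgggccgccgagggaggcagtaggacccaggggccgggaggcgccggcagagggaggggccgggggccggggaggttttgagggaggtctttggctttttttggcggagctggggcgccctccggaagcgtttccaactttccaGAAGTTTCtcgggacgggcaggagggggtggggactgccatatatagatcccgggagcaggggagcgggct
The matches begin 106 and 71 bases before the start. Of the 23 genes of the list, 20 matched a RefSeq promoter and 8 of those (40%) held GAANNTTC, against 5.85% of all promoters. Both printed windows hold it, and HSPA1A rose in TMD8 while SERPINH1 was not called there.

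HSPA1A stood at 3.87, 9.18 and 3.68 CPM in OCI-Ly1 with DMSO and at 2.94, 2.78 and 3.74 CPM at 150 nM. The TMD8 libraries stood at 1.34, 2.92 and 2.99 CPM with DMSO and at 12.8, 17.5 and 29.2 CPM at 150 nM. TMD8 rose in every library, and the high OCI-Ly1 value belonged to DMSO replicate 2, the library that stood apart. The difference was -3.80 ± 0.46 (adjusted p = 2.7e-06), lay between -4.03 and -3.31 when each library was left out in turn, and was -2.30 on log2(TPM + 1). SERPINH1, the collagen chaperone HSP47, rose in OCI-Ly1 from 0.563 to 0.658 CPM (10 to 17 counts) up to 0.822 to 1.55 CPM (21 to 39 counts), and stayed between 27.6 and 31.5 CPM in TMD8. Its difference was 1.08 ± 0.25 (adjusted p = 0.0023).

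Of 10 tested metal-responsive genes, 8 were called higher and 1 lower in TMD8, against 15.8% and 21.3% of all genes tested. None was called in OCI-Ly1 by edgeR or DESeq2 (0 at an unadjusted p under 0.05). The difference was called above for 1 (10%, against 15% of all genes tested) and below for 2 (20%, against 8.33%). MT2A, a metallothionein that buffers zinc and copper, stood at 1.96, 1.69 and 0.619 CPM in OCI-Ly1 with DMSO and at 1.37, 0.873 and 0.974 CPM at 150 nM. TMD8 levels were 7.58, 8.42 and 8.07 CPM with DMSO and at 24.2, 28.1 and 38.8 CPM at 150 nM. OCI-Ly1 overlapped and TMD8 did not, and the difference was -2.30 ± 0.40 (adjusted p = 1.6e-04). SLC39A10, a zinc importer, went the other way, with a change of 0.06 in OCI-Ly1, -0.60 in TMD8 and a difference of 0.66 ± 0.11. In 3 of the 10 genes no OCI-Ly1 library had more than 3 counts. Over the other 7 the median difference was -0.02, against -0.14 over all 10.

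The antioxidant genes of NRF2 and the unfolded-protein genes of the endoplasmic reticulum had called differences in both directions. Of 19 tested NRF2 genes, 6 differed above (31.6%, against 15% of all genes tested) and 3 below (15.8%, against 8.33%). SLC7A11, the cystine importer that ATF4 also drives, rose by 0.38 in OCI-Ly1 and 1.26 in TMD8, with a difference of -0.89 ± 0.10, or -0.45 on log2(TPM + 1). TXN, thioredoxin, fell in TMD8 from 86.8 to 104 CPM down to 56.8 to 75.4 CPM and differed by 0.45 ± 0.10. Of 20 tested unfolded-protein genes, 6 differed below (30%, against 8.33% of all genes tested) and 1 above (5%, against 15%). DNAJB9, a chaperone cofactor of the endoplasmic reticulum, rose by 1.22 in TMD8 and differed by -0.94 ± 0.15. ERN1, the sensor IRE1, rose by 1.36 in TMD8, with 0.58 in OCI-Ly1 that was not called (adjusted p = 0.067), and differed by -0.78 ± 0.20. HSPA5, the main chaperone of that compartment, differed by 0.05 and was not called. The median difference of this list was -0.04 and changed sign in 4 of the 22 alternatives.

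Hypoxia-inducible genes were the only list in which OCI-Ly1 had more than 1 called fall: 6 of 25 tested members were called lower there, against 10 lower and 7 higher in TMD8. Over all genes tested, 0.235% were called lower in OCI-Ly1, and 21.3% lower and 15.8% higher in TMD8. The difference was called above for 4 (16%, against 15% of all genes tested) and below for 6 (24%, against 8.33%). Its median of -0.08 changed sign in 5 of the 22 alternatives. ALDOC, a glycolytic aldolase, changed by -0.99 in OCI-Ly1 and by 0.37 in TMD8, which was not called. PFKFB4, a regulator of glycolysis, fell by 1.69 and 0.49. LDHA, lactate dehydrogenase, changed by -0.26 in OCI-Ly1, which was not called, and by -0.78 in TMD8. The called differences of these genes were -1.36, -1.20 and 0.53. ADM, a vasodilator peptide gene, differed by -3.75 ± 0.53, but from 5, 2 and 0 counts in TMD8 with DMSO to 10, 21 and 36 counts at 150 nM, and it was -0.91 on log2(TPM + 1). P4HA2, a collagen prolyl hydroxylase, differed by -1.94 ± 0.45 from 4 to 20 counts in the OCI-Ly1 libraries, and without OCI-Ly1 DMSO replicate 3 the difference was -1.34 and was not called (adjusted p = 0.058); on log2(TPM + 1) it was -0.74 and called.

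**Figure D4:**
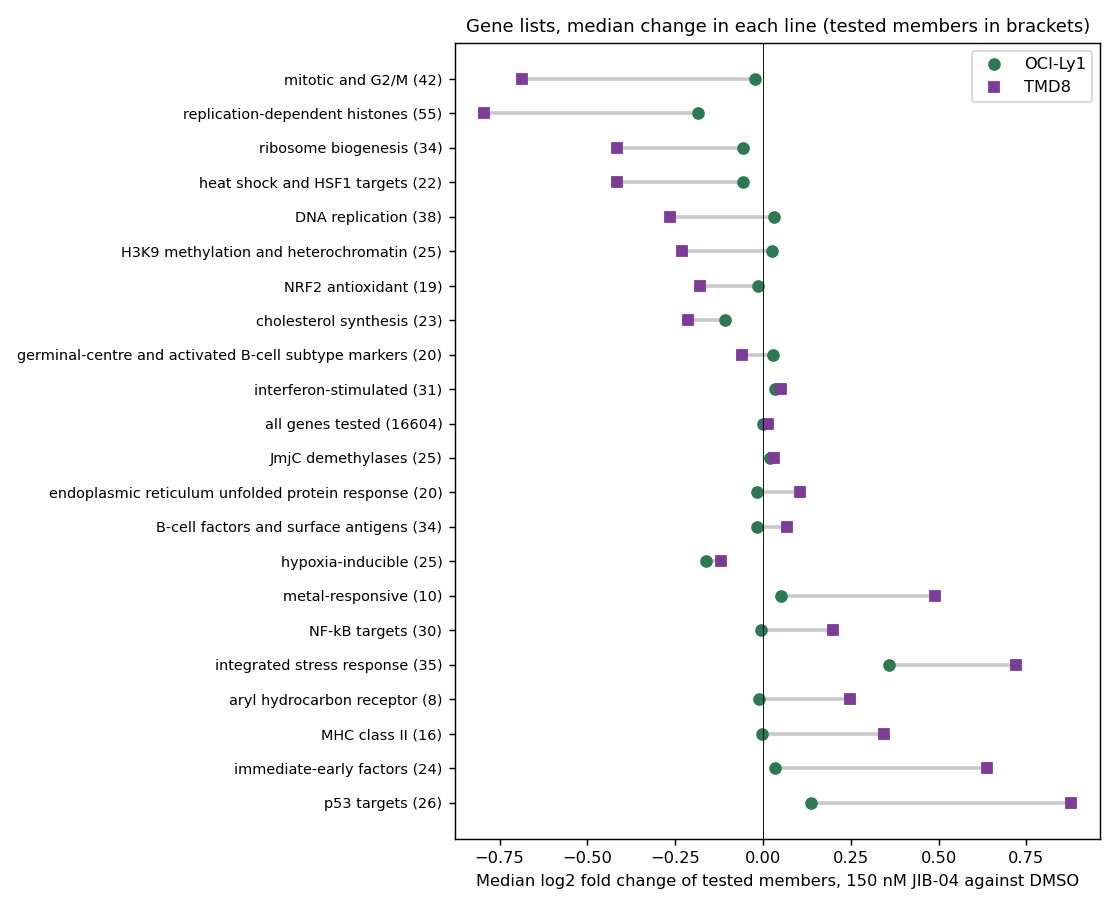
Median log2 fold change at 150 nM against DMSO of the tested members of 21 gene lists and of all 16604 genes tested, with green circles for OCI-Ly1 and purple squares for TMD8. Lists are ordered by the median difference between lines, from the p53 targets at -0.65 at the bottom to the mitotic genes at 0.68 at the top, and the integrated stress response is the list with the highest OCI-Ly1 median.

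Immediate-early genes, the first transcribed after a signal, had a median TMD8 change of 0.64, which the p53 and integrated stress lists exceeded. Of 24 tested members, 18 were called higher and 3 lower in TMD8, against 15.8% and 21.3% of all genes tested. In OCI-Ly1, 2 were called higher. The difference was called below for 10 (41.7%, against 8.33% of all genes tested) and above for 3 (12.5%, against 15%). Its median of -0.45 was -0.74 without OCI-Ly1 DMSO replicate 3 and -0.24 on log2(TPM + 1). FOSB, an AP-1 subunit, rose in TMD8 from 5 to 12 counts per library with DMSO to 145, 216 and 342 counts at 150 nM, and had 1 to 12 counts in the OCI-Ly1 libraries. Its difference was -5.85 ± 0.65, and -1.74 on log2(TPM + 1). FOS, its relative, rose in TMD8 from 1.05 to 1.52 CPM up to 7.77 to 14.8 CPM, with 1 to 13 counts in the OCI-Ly1 libraries. The FOS difference was -2.81 ± 0.76, and without OCI-Ly1 DMSO replicate 1 it was -1.85 and not called (adjusted p = 0.26). On log2(TPM + 1) it was -1.53 and called. NR4A1, an orphan nuclear receptor, differed by -2.48.

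NF-kB targets rose in TMD8 for 16 of 30 tested members and fell for 6, while 1 rose in OCI-Ly1. Over all genes tested, 15.8% were called higher and 21.3% lower in TMD8. The difference was called below for 9 (30%, against 8.33% of all genes tested) and above for 3 (10%, against 15%). Its median of -0.25 ran from -0.33 to -0.074 over the alternatives. LTA, which encodes lymphotoxin alpha, stood at 1.80, 2.37 and 1.59 CPM in OCI-Ly1 with DMSO and at 1.17, 2.02 and 1.23 CPM at 150 nM. Values in TMD8 were 17.6, 16.96 and 17.9 CPM with DMSO and at 48.0, 49.9 and 50.3 CPM at 150 nM. OCI-Ly1 overlapped, TMD8 rose in all libraries by nearly the same step, and the difference was -1.83 ± 0.23 (adjusted p = 4.8e-06). LTB, its membrane partner, differed by -1.93 ± 0.22. NFKBIA, the feedback inhibitor of NF-kB, fell by 0.29 in TMD8 and differed by 0.33. ICAM1, an adhesion molecule, rose by 0.86 in OCI-Ly1 and fell by 0.22 in TMD8, with a called difference of 1.08, from 1.18 to 1.61 CPM in OCI-Ly1 and 89.9 to 94.6 CPM in TMD8 with DMSO.

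The MHC class II genes, which present antigen to T helper cells, could be compared in both lines only in part. Of 16 tested members, 11 were called higher in TMD8, against 15.8% of all genes tested. No member was called in OCI-Ly1 by edgeR or DESeq2 (0 at an unadjusted p under 0.05). But 6 members had no OCI-Ly1 library with more than 3 counts, HLA-DRB1 among them. Over the other 10 the median difference was -0.35, against -0.43 over all 16, and 4 were called, all below. Those 4 were 25% of the 16, against 8.33% of all genes tested. CIITA, the transactivator of these genes, was measured well in both lines. It stood at 49.8, 49.4 and 43.7 CPM in OCI-Ly1 with DMSO and at 49.1, 43.6 and 42.0 CPM at 150 nM. In TMD8 it stood at 125, 128 and 124 CPM with DMSO and at 194, 203 and 211 CPM at 150 nM. Only TMD8 moved by the test, by 0.69 ± 0.06, and the difference was -0.77 ± 0.08 (adjusted p = 7.5e-07). HLA-DMB, a chaperone of peptide loading, differed by -0.67 ± 0.16.

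Of 34 tested B-cell factors and surface antigens, 4 differed above (11.8%, against 15% of all genes tested) and 5 below (14.7%, against 8.33%), and the median difference of -0.07 changed sign in 3 of the 22 alternatives. IRF4 and MS4A1, a plasma-cell factor and the antigen CD20, fell by 0.32 and 0.31 in TMD8 and differed by 0.36 and 0.39. PRDM1, the plasma-cell repressor BLIMP1, differed by -0.72 ± 0.21, but without OCI-Ly1 DMSO replicate 2 by -0.48, which was not called (adjusted p = 0.096). It had 26 to 54 counts in the OCI-Ly1 libraries. On log2(TPM + 1) it was at -0.19 and not called, nor was it on log2(TPM + 0.1) or without MIR3687.

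Among 20 tested markers of the germinal-centre and activated B-cell subtypes, 2 differed above (10%, against 15% of all genes tested) and 3 below (15%, against 8.33%). BCL2, the survival gene, stood between 537 and 559.9 CPM in all 6 OCI-Ly1 libraries. TMD8 levels were 229.8, 235 and 231 CPM with DMSO and at 343, 362 and 365 CPM at 150 nM. OCI-Ly1 was flat at the higher level, TMD8 rose without reaching it, and the difference was -0.62 ± 0.07 (adjusted p = 3.7e-07). ITPKB, a kinase that restrains B-cell receptor signalling, rose by 0.60 in TMD8 and differed by -0.81 ± 0.12. The median difference of the list was 0.06 and changed sign in 3 alternatives.

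Of 31 tested interferon-stimulated genes, 3 differed above (9.68%) and 5 below (16.1%), against 15% and 8.33% of all genes tested, and the median of 0.02 changed sign in 3 alternatives. OAS1 and OAS3, which sense double-stranded RNA, rose in TMD8 by 0.68 and 0.76 and differed by -0.73 ± 0.11 and -0.65 ± 0.13. MX1, an antiviral GTPase, fell by 0.67 in TMD8 and differed by 0.59.

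**Figure D5:**
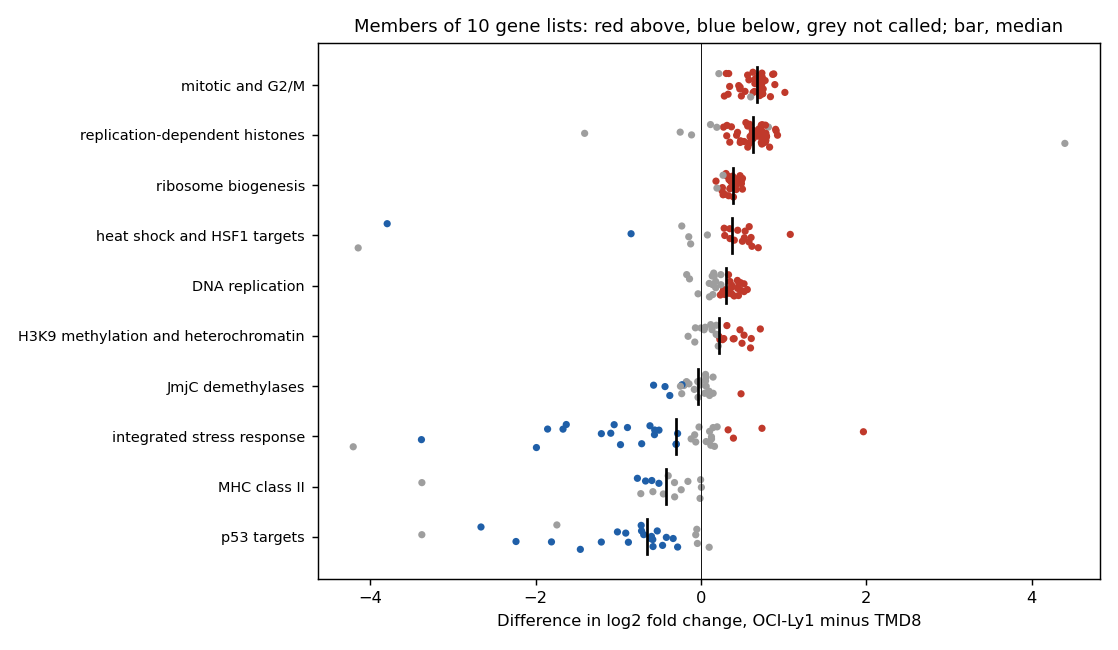
Difference in log2 fold change, OCI-Ly1 minus TMD8, for each tested member of 10 gene lists, red where called above, blue where called below and grey where not called, with a bar at the list median. All 42 mitotic and 34 ribosome biogenesis genes lie to the right of 0, 25 of 26 p53 targets lie to the left, and the integrated stress response spreads from -4.21 to 1.97.

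Of the 25 tested JmjC genes, the enzyme family that JIB-04 inhibits, 1 differed above (4%, against 15% of all genes tested) and 4 below (16%, against 8.33%), with a median of -0.04 that changed sign in 3 alternatives. KDM4A, a demethylase of lysine 9 on histone H3, stood at 79.7, 80.5 and 75.0 CPM in OCI-Ly1 with DMSO and at 88.3, 80.9 and 75.4 CPM at 150 nM. Values in TMD8 were 68.6, 65.0 and 68.7 CPM with DMSO and at 76.4, 79.3 and 82.5 CPM at 150 nM. OCI-Ly1 overlapped and TMD8 rose by 0.24 ± 0.06. The KDM4A difference was -0.18 (95% interval -0.35 to -0.0033, adjusted p = 0.14). Its relatives KDM4B and KDM4C differed by -0.21 (95% interval -0.43 to 0.01) and -0.15 (-0.32 to 0.03), with adjusted p = 0.17 and 0.24. Without OCI-Ly1 150 nM replicate 1, KDM4A and KDM4B passed the test, at -0.24 and -0.34 (adjusted p = 0.033 and 0.0050), and without OCI-Ly1 150 nM replicate 3 KDM4B was at -0.099. Scaled by library size alone, KDM4A and KDM4C passed the test, at -0.26 and -0.23, and on log2(TPM + 1) both were at or just above 0.

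KDM6B, a demethylase of lysine 27 on histone H3, was the JmjC member with the largest difference. It stood between 7.16 and 9.31 CPM in the 6 OCI-Ly1 libraries, and in TMD8 at 57.3, 57.6 and 58.0 CPM with DMSO and 84.0, 95.7 and 109 CPM at 150 nM. The difference was -0.57 ± 0.13 (adjusted p = 0.0017). MINA, a nucleolar JmjC hydroxylase also known as RIOX2, was the member above, falling by 0.45 in TMD8 with a difference of 0.48 ± 0.10.

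Genes of lysine 9 methylation and heterochromatin were mostly lower in TMD8. Of 25 tested members, 15 were called lower and 1 higher in TMD8 and none in OCI-Ly1 by edgeR or DESeq2 (1 at an unadjusted p under 0.05), and 13 differed, all above, with a median of 0.22 that ran from 0.13 to 0.40 over the alternatives. The 13 were 52% of the list, against 15% of all genes tested, of which 21.3% were called lower in TMD8. LBR, the lamin B receptor that tethers heterochromatin to the nuclear envelope, stood between 275 and 313 CPM in the 6 OCI-Ly1 libraries. In TMD8 it stood at 243, 215 and 221 CPM with DMSO and at 150.1, 146 and 122 CPM at 150 nM, and the difference was 0.72 ± 0.09 (adjusted p = 6.3e-06). DNMT3B, a DNA methyltransferase, differed by 0.61 ± 0.16. CBX3, which encodes the reader HP1 gamma, differed by 0.60, and the lysine 9 methyltransferases SUV39H1 and SUV39H2 by 0.47 and 0.50. SETDB1 and EHMT1, methyltransferases of the same residue, differed by 0.04 and -0.07 and were not called.

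Cholesterol synthesis genes fell in TMD8 for 13 of 23 tested members and rose for 3, against 21.3% and 15.8% of all genes tested. The difference was called above for 5 (21.7%, against 15% of all genes tested) and below for 2 (8.70%, against 8.33%), with a median of 0.16. LSS, lanosterol synthase, went against most of its list: it stood between 75.0 and 98.002 CPM in OCI-Ly1 and rose in TMD8 from 232, 257 and 255 CPM to 364, 403 and 409.7 CPM, with a difference of -0.77 ± 0.10.

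CYP1A1, the classic target of the aryl hydrocarbon receptor, showed the largest opposite called changes of the orientation lower in OCI-Ly1 and higher in TMD8. It stood at 43.0, 35.3 and 34.2 CPM in OCI-Ly1 with DMSO and at 27.4, 23.2 and 25.9 CPM at 150 nM. The TMD8 libraries stood at 9.73, 9.18 and 8.18 CPM with DMSO and at 17.1, 18.4 and 18.6 CPM at 150 nM. The lines moved towards each other, by -0.56 ± 0.09 and 1.01 ± 0.11, with a difference of -1.56 ± 0.14 (adjusted p = 5.4e-08). AHR, the receptor, differed the other way by 0.62 ± 0.12, falling in TMD8 from 417 to 473 CPM down to 241 to 327 CPM. Of the 8 tested genes of this list, 3 differed below (37.5%, against 8.33% of all genes tested) and 1 above (12.5%, against 15%).

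Other opposite changes were smaller than those of CYP1A1. DBN1, an actin-binding protein, stood at 90.3, 87.9 and 90.6 CPM in OCI-Ly1 with DMSO and at 115, 108 and 104 CPM at 150 nM, and fell in TMD8 from 189.6 to 192 CPM down to 156 to 166 CPM. Its changes were 0.29 and -0.26, with a difference of 0.55 ± 0.07. WNT10A, a secreted WNT ligand, fell by 0.56 in OCI-Ly1, rose by 0.29 in TMD8 and differed by -0.86 ± 0.13. CD274, the checkpoint ligand PD-L1, rose in both lines and by more in OCI-Ly1, at 1.48 against 0.21. It did so from 6 to 10 counts per library with DMSO to 17 to 33 at 150 nM in OCI-Ly1, against 87.2 to 92.6 CPM up to 99.8 to 107 CPM in TMD8, and its difference of 1.27 ± 0.28 was not called on log2(TPM + 1), where it was 0.22.

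The remaining genes with the largest called differences were of several kinds. RHOB, a small GTPase induced by stress, stood between 0.613 and 1.18 CPM in the 6 OCI-Ly1 libraries. TMD8 levels were 1.07, 1.17 and 1.15 CPM with DMSO and at 10.2, 15.8 and 16.4 CPM at 150 nM. It was low in both control groups and rose in TMD8 alone by the test, with a difference of -3.45 ± 0.36 (adjusted p = 3.7e-07) that lay between -3.67 and -3.13 when each library was left out in turn and was -1.73 on log2(TPM + 1). ROCK1P1, a pseudogene of the kinase ROCK1, rose in OCI-Ly1 from 3.53, 2.93 and 3.60 CPM to 20.3, 18.4 and 15.4 CPM and in TMD8 from 1.34, 1.58 and 1.31 CPM to 1.83, 2.32 and 2.26 CPM. Its difference was 1.81 ± 0.27 (adjusted p = 2.7e-05), and its reads cannot be told with certainty from those of ROCK1.

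Several of the largest differences rested on 1 library or on near-identical sequence. KLF15, a zinc-finger factor of metabolism, differed by -3.94 ± 1.01 with 7.27 CPM in OCI-Ly1 DMSO replicate 2 and 0.238 to 0.613 CPM in the other 5 OCI-Ly1 libraries, and without that replicate by -1.69, which was not called (adjusted p = 0.30). On log2(TPM + 1) KLF15 was at -1.90 and called, and on log2(TPM + 0.1) at -2.74 and not called (limma adjusted p = 0.062). FGF23, a phosphate hormone gene, stood at 66.6 CPM in OCI-Ly1 DMSO replicate 2 against 1.90 to 2.82 CPM in the other 5. Its difference fell from -3.35 to -0.21 without that library, and it was not called in 15 of the 22 alternatives. C1orf95 differed by 4.08 ± 1.23 with 102, 198 and 8.81 CPM in the TMD8 DMSO libraries, so that the controls alone spanned most of its range, and without OCI-Ly1 150 nM replicate 3 it differed by 2.73 and was not called (adjusted p = 0.25), nor was it on any of the 4 TPM settings. SMN1, the motor neuron survival gene, differed by 2.01 ± 0.54, falling in TMD8 from 34.3 to 46.8 CPM down to 7.92 to 14.6 CPM, and is nearly identical to SMN2. It was not called on the 4 TPM settings (adjusted p from 0.068 to 0.089), and DESeq2 gave no adjusted p. EIF3CL, a near-copy of the initiation factor gene EIF3C, differed by 1.81 ± 0.36. C7orf55-LUC7L2, a read-through annotation, differed by 1.97 ± 0.45, with 15.9 CPM in TMD8 DMSO replicate 1 and 4.502 and 4.93 CPM in the other TMD8 controls, and by 1.19 without that replicate. On log2(TPM + 1) it differed by 1.01 and was not called (adjusted p = 0.068), nor was it centred or without MIR3687.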

How the data were processed

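RNA of OCI-Ly1 and TMD8 cells was ribosome-depleted and sequenced as paired ends, per the labels' protocols. The authors deposited estimated counts and TPM for 23686 gene symbols in each line. Per the submitters' processing notes, kallisto 0.46.0, the hg19 build, R 4.3.1 and DESeq2 1.40.2 were used; the index and the step from transcripts to genes are not given in the sources used here. The deposited estimated counts were rounded to whole numbers. TPM values, as scaled by the authors, served only for alternatives and marker levels.

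The tables of both lines were joined by symbol, and all 18 libraries were fitted with edgeR 4.0.16 in R 4.3.3 (quasi-likelihood test, TMM, edgeR's low-count filter by group), which left 16604 genes. Standard errors are the absolute log2 change over the square root of F. Alternatives used limma 3.58.1 on log2 TPM and DESeq2 1.42.0. On simulated counts with 16118 genes, 88 of 100 differences of log2 1 and 53 of 100 of log2 0.5 were recovered, with 4 false calls. The changed genes averaged at least 1 CPM with DMSO in both lines and rose and fell equally often. No other simulated gene was given a treatment effect. Far more genes changed in the data, so these rates do not carry over to it.

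Named genes were the 5 largest called differences each way, the 2 largest opposite changes of each orientation, the largest called differences among genes changed in both lines in 1 direction, and 3 genes changed in both lines with the 95% interval of the difference within 0.5, all exceeding 3 counts in all 12 libraries and averaging 5 CPM or more in at least 1 group. To these came, with no such condition, the 2 called members of each of 21 lists with the largest difference, and KDM4A, KDM4B and KDM4C. Of the genes this rule gave, 2 are not reported here. Other list members were named after their values were seen. The comparison, members and lists were chosen with earlier results of these data known. Within groups, 12 pairs of libraries had chi-square per degree of freedom of 1.88 to 10.7, so none agreed within sampling noise. Counting error alone limits genes of few counts.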

Additional observations from a re-analysis of the deposited data

Results flagged for a closer look

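The change at 150 nM differed between OCI-Ly1 and TMD8 by the test of the difference itself (edgeR, adjusted over all genes) for 2484 genes with the OCI-Ly1 change above and 1383 with it below. Named genes among them follow as differences in log2 change, OCI-Ly1 minus TMD8. The differences above 0 began with C1orf95 at 4.08, SMN1 at 2.01, C7orf55-LUC7L2 at 1.97, EIF3CL at 1.81, ROCK1P1 at 1.81 and CD274 at 1.27. Smaller ones followed for SERPINH1 at 1.08, CDC20 at 1.02, HIST1H2AJ at 0.93, HIST1H2BL at 0.91 and CCNB1 at 0.89. Further genes above 0 were LBR at 0.72, SLC39A10 at 0.66, AHR at 0.62, DNMT3B at 0.61, MCM4 at 0.56 and DBN1 at 0.55. The rest above 0 were RPA3 at 0.52, UTP20 at 0.50, HEATR1 at 0.50, MINA at 0.48 and TXN at 0.45.

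Below 0, the differences began with FOSB at -5.85, KLF15 at -3.94, HSPA1A at -3.80, ADM at -3.75 and RHOB at -3.45. The next in size were CHAC1 at -3.38, FGF23 at -3.35, FOS at -2.81, PHLDA3 at -2.66 and MT2A at -2.30. In the middle of the range stood GADD45A at -2.24, SLC6A9 at -1.99, P4HA2 at -1.94, LTB at -1.93 and LTA at -1.83. Lower in size came CYP1A1 at -1.56, DNAJB9 at -0.94, SLC7A11 at -0.89, WNT10A at -0.86 and ITPKB at -0.81. Then came ERN1 at -0.78, CIITA at -0.77, LSS at -0.77, OAS1 at -0.73 and PRDM1 at -0.72. The smallest below 0 were HLA-DMB at -0.67, OAS3 at -0.65, BCL2 at -0.62 and KDM6B at -0.57. The differences of KLF15 and FGF23 rested on OCI-Ly1 DMSO replicate 2: without it they were -1.69 and -0.21 and were not called. PRDM1 was at -0.48 and not called without that library. FGF23 was not called in 15 of the 22 alternatives, among them the 12 libraries alone (edgeR adjusted p = 0.061). KLF15 was also not called on log2(TPM + 0.1), and PRDM1 on log2(TPM + 1), on log2(TPM + 0.1) and without MIR3687. Calls were also lost for FOS without OCI-Ly1 DMSO replicate 1 and for P4HA2 without OCI-Ly1 DMSO replicate 3. Above 0, C1orf95 lost its call without OCI-Ly1 150 nM replicate 3.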

How the results depend on the processing

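Over 22 alternatives the counts of differences above and of TMD8 genes lower stayed within 1.5 times, and the other counts did not. The OCI-Ly1 genes called higher were 103 and lower 14 with the 12 libraries alone, 122 lower with no low-count filter, 75 higher and 7 lower on log2(TPM + 1), 84 and 8 on log2(TPM + 0.1), 106 higher on centred values, and 81 and 9 without MIR3687, a setting chosen after seeing the data. Differences called below were 568, 548 and 671 on log2(TPM + 1), log2(TPM + 0.1) and without MIR3687, where TMD8 genes called higher were 1044, 1103 and 1239. Differences of at least 1 were 123 on log2(TPM + 1), 126 centred and 128 without MIR3687. The cause was not tested.

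The difference of PYCR1, -0.06 as reported, changed sign to 0.19, 0.13, 0.072 and 0.17 on log2(TPM + 1), log2(TPM + 0.1), centred and without MIR3687. That of KDM4A was 0.00285 on log2(TPM + 1), and that of KDM4C was 0.029, 0.029 and 0.018 on log2(TPM + 1), log2(TPM + 0.1) and without MIR3687. The cause was not tested. Leaving out each library in turn gave 1803 to 2637 genes above, 965 to 1479 below, 299 to 486 differences of at least 1, 104 to 277 OCI-Ly1 genes higher and 13 to 85 lower, 1879 to 2705 TMD8 genes higher and 2618 to 3687 lower, and a PYCR1 difference of -0.19 to 0.022.

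Same-numbered libraries were not paired by the labels, and their deviations from the group means correlated at 0.10, 0.0081 and 0.12 for OCI-Ly1 and at 0.093, -0.033 and 0.092 for TMD8. With a replicate block the calls were 2673 above and 1483 below, and 198 higher and 60 lower in OCI-Ly1. List medians kept their sign over the 22 alternatives except in 6 lists: unfolded-protein, hypoxia, B-cell, subtype marker, interferon and JmjC genes. Leaving out 1 library moved the medians of these lists and of the metal and immediate-early lists by over 1.5 times, the metal median to -0.058 without OCI-Ly1 DMSO replicate 1. Genes under about 20 counts in a group, such as FOS, ADM and P4HA2, were limited by depth.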

Other observations

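A small set of genes was called for the difference and in OCI-Ly1 without being called in TMD8. With the naming conditions on counts and level it held 39 genes, 30 higher and 9 lower in OCI-Ly1, and the genes below were chosen after their values were seen. SLC43A1, a transporter of large neutral amino acids, stood at 12.2, 14.9 and 12.3 CPM in OCI-Ly1 with DMSO and at 25.4, 23.6 and 24.2 CPM at 150 nM. In TMD8 all 6 libraries lay between 41.7 and 46.5 CPM. The OCI-Ly1 change was 0.91 ± 0.08, and the difference was 0.85 ± 0.10. PLEK, the cytoskeletal protein pleckstrin, rose in OCI-Ly1 from 81.6 to 90.9 CPM up to 121 to 137 CPM, with a TMD8 change of -0.12 that was not called (adjusted p = 0.080) and a difference of 0.69 ± 0.08.

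Transfer RNA synthetases were among the 30. TARS, which charges threonine, rose by 0.37 in OCI-Ly1 and changed by -0.00448 in TMD8. IARS, which charges isoleucine, stood at 746, 742 and 744 CPM in OCI-Ly1 with DMSO and at 858, 848 and 876 CPM at 150 nM, with no overlap and a change of 0.21. NRN1, which encodes neuritin, was among the 9 lower genes, with a change of -0.79 in OCI-Ly1 and 0.19 in TMD8.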
